A study of Mus musculus with 18 samples.

Results

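Adipocytes in which a constitutively active IRF3 had been switched on were compared with adipocytes of the same origin in which it stayed silent. The members were the 6 libraries of adipocytes differentiated in culture from the SVF of inguinal white adipose tissue (iWAT), out of 18 libraries in the series. They were chosen by their labels, 3 with AAV carrying Cre (FI3OE) and 3 with AAV carrying GFP (WT), and all genes were tested. The SVF, or stromal vascular fraction, is what remains of fat tissue once mature fat cells are removed, and it holds the precursors that become adipocytes in culture. All 6 libraries came from C57BL/6 mice with the IRF3-2D allele, in which 2 residues are mutated so that the protein is active without an upstream signal, and which is silent until Cre acts. The donors were 4 to 6 weeks old, the virus was added on day 6 of differentiation and the cells were used on day 8. The WT cells therefore held the same allele without recombination, and the effects of Cre itself and of IRF3-2D cannot be told apart here. The promoter that drives Cre is not given in the sources used here, and which cells of the dish recombined was not measured. The labels call the libraries biological replicates without saying whether they came from separate mice or dishes, so that the p-values measure the spread between these libraries.

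IRF3 is a transcription factor of innate immunity. Sensors of microbial nucleic acid and endotoxin activate kinases that phosphorylate it, after which it enters the nucleus and binds interferon response elements next to antiviral and chemokine genes. Adipocytes are secretory cells with an endoplasmic reticulum (ER), mitochondria and a basement membrane, and they make, store and release triglyceride. The comparison addressed which genes change when IRF3 is active in adipocytes, with attention here to programs other than the interferon response.

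The FI3OE libraries held 23659055, 27086716 and 36932452 reads and the WT libraries 23913790, 21541334 and 25403517. The first principal component of log2 CPM (reads of a gene relative to the library total, after TMM scaling) held 45% of the variance and separated the groups. The cells carried adipocyte transcripts, with at least 33833 reads of Fabp4 and 17046 of Adipoq in every library. They also carried transcripts of other SVF cells, with at least 9763 reads of the fibroblast receptor gene Pdgfra, 15957 of Lyz2 and 5027 of Adgre1, both markers of macrophages. The T cell gene Cd3e had at most 2 reads and the epithelial gene Krt14 had 0. In such bulk libraries, fewer cells of a type and less RNA per cell cannot be told apart.

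Of 16105 genes tested, 20.2% were higher in FI3OE and 16.8% lower at an adjusted p of 0.05 (edgeR, quasi-likelihood test, p-values adjusted by Benjamini-Hochberg as in all that follows). With a log2 fold change of at least 1 as well, these shares were 1.99% and 1.63%. Small changes thus passed the test often, and counts for gene lists are to be read against 20.2% and 16.8%. The median log2 fold change over all genes was -0.00, with quartiles of -0.20 and 0.18.

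**Figure D1:**
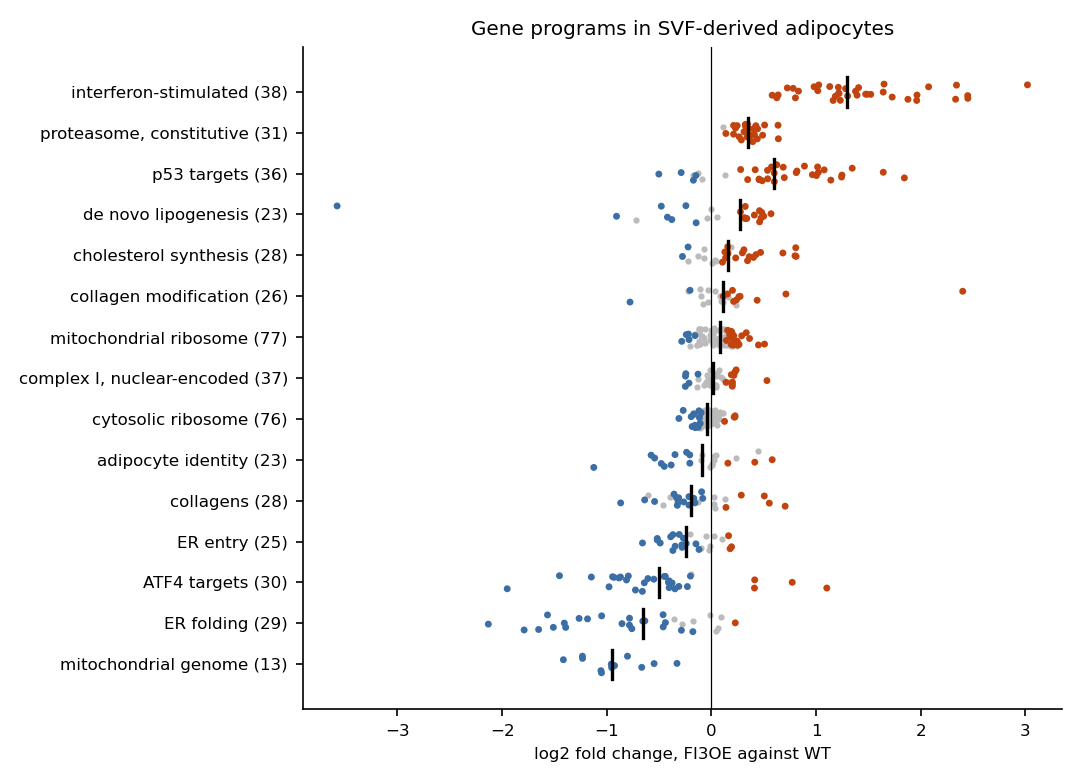
Log2 fold change of FI3OE against WT (x axis) for each tested gene of 15 lists (y axis, number tested in parentheses). Red and blue points are genes higher and lower at an adjusted p of 0.05, grey points did not pass and bars are medians, which run from 1.29 for interferon-stimulated genes to -0.95 for genes of the mitochondrial genome.

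Irf3 was read at 92.0, 102 and 91.4 CPM in FI3OE and at 57.9, 56.8 and 56.8 CPM in WT. All FI3OE libraries were above all WT libraries, and the log2 fold change was 0.73 (SE 0.046, adjusted p = 3.3e-07). The rise lay mainly on 1 transcript of 1429 nt, which held between 1368.2 and 2193.3 estimated reads in FI3OE and between 539.2 and 639.7 in WT. Reads of the 2031-nt transcript overlapped between the groups, at 177.4 to 529.5 in FI3OE and 213.0 to 263.1 in WT. With an offset for average transcript length the log2 fold change of Irf3 was 0.46 (adjusted p = 0.00219). The measurement does not separate the 2D allele from the endogenous one.

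The list of interferon-stimulated genes had the highest median of the programs. Each of the 38 tested genes of this list was higher in FI3OE, 30 of them at least 2-fold, with a median log2 fold change of 1.29. Ifit1, an inhibitor of viral translation, was at 940, 972 and 908 CPM in FI3OE and 221, 217 and 230 CPM in WT. Isg15, a ubiquitin-like modifier, was at 165, 173 and 145 CPM against 40.8, 44.4 and 46.2 CPM. The groups did not overlap for either gene. Among the largest rises were those of Tgtp1 (log2 fold change 3.02) and Ifit3b (2.45), whose reads can be shared with the close copies Tgtp2 and Ifit3. Of 19 NF-kB target genes 8 (42.1%, against 20.2% of all genes) were higher and 2 lower, with a median of 0.01. The largest of these rises were those of the chemokine genes Ccl2 and Ccl7 (log2 fold change 1.51 and 1.33). In a fit of all 18 libraries of the series, Ccl2 and Ccl7 had adjusted p-values of 0.116 and 0.0976.

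The promoters of Ifit1 and Isg15 are shown because they hold the letters that interferon regulatory factors are known to bind. The sequences are the 250 bases before the gene start on the gene's strand, from RefSeq on GRCm38.p6, and capitals mark matches to GAAANNGAAA on either strand. Matches can overlap, as they do in Isg15.
Ifit1, chr19:34640639-34640888, plus strand: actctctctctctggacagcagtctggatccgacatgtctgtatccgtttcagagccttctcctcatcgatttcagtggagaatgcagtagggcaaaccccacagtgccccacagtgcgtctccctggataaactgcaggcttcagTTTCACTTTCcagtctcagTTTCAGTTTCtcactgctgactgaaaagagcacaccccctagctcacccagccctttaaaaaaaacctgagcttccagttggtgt
Isg15, chr4:156200819-156201068, minus strand: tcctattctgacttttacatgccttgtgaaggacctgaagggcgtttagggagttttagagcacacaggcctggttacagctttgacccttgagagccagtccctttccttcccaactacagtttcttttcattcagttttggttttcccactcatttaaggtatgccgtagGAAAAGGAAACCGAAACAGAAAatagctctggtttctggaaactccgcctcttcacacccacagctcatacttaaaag

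Ifit1 held 2 such matches, starting 104 and 85 bases before the gene start, and Isg15 held 3, the first starting 78 bases before it. A window of this kind was found for 30 of the 38 interferon-stimulated genes, and 16 of these 30 (53.3%) held a match. Among all 11485 tested genes with a window the share was 3.37%, and among all 32851 windows of the table it was 2.98%. Of the genes higher past both cutoffs that were not on the interferon list, 190 had a window and 25 (13.2%) held a match, against 2 of 164 (1.22%) for the genes lower past both cutoffs. Those 25 included family members of listed genes, such as Ifit1bl1, Ifit1bl2, Gbp5, Gbp7 and Tgtp2. Their share thus depends on how the interferon list was drawn. Parp11, Ddx60 and H2-T23 were also among them, as was Inhbb, which encodes an activin and inhibin subunit (61.1, 60.7 and 62.5 CPM against 26.7, 30.1 and 29.0). A match is a string of letters and was not tested for binding.

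The ER folding machinery fell. Proteins that are secreted or placed in membranes enter the ER through the Sec61 channel, fold there with the help of chaperones and disulfide isomerases, and are exported in COPII vesicles or returned to the cytosol for degradation. Of 29 chaperone and isomerase genes, 21 were lower in FI3OE, 10 of them at least 2-fold, 1 was higher and 7 did not pass, with a median log2 fold change of -0.66. Their summed CPM made up 0.569% to 0.634% of all CPM in FI3OE and 1.12% to 1.215% in WT, so that the libraries did not overlap.

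Hspa5 encodes BiP, the main Hsp70 chaperone of the ER lumen and a regulator of the stress sensors. It was at 842, 702 and 1075 CPM in FI3OE and at 2623, 2745 and 2861 CPM in WT. Every FI3OE library was thus below every WT library, by a log2 fold change of -1.65 (SE 0.115, adjusted p = 6.94e-07). Hsp90b1, the Hsp90 of the ER, was at 581, 564 and 661 CPM against 1488, 1597 and 1659 CPM (log2 fold change -1.39, SE 0.059). Sdf2l1, a cofactor of BiP, was at 12.8, 11.1 and 19.6 CPM against 59.5, 68.8 and 66.8 CPM with the largest fall of the list (log2 fold change -2.13, SE 0.149, adjusted p = 7.18e-07). Creld2, a disulfide isomerase, followed at 15.8, 15.1 and 20.9 CPM against 57.7, 60.0 and 63.2 CPM (log2 fold change -1.79). FI3OE replicate 3 was the highest FI3OE library for these 4 genes and still lay below all WT libraries.

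The same direction was seen in the nucleotide exchange factor gene Hyou1 (log2 fold change -1.57), the oxidase gene Ero1l (-1.51), the secreted stress factor gene Manf (-1.41), the isomerase genes Pdia4 (-1.26) and Pdia6 (-1.05) and the co-chaperone gene Dnajc3 (-1.18). Calr and Canx, which encode the lectin chaperones of the glycoprotein cycle, fell less, by 0.78 and 0.46. The member that rose was Sdf2, at 28.4, 26.1 and 27.1 CPM against 23.8, 22.1 and 23.7 CPM (log2 fold change 0.23, SE 0.056, adjusted p = 0.00771). Sdf2 is a close relative of Sdf2l1, the gene that fell most. The call for Sdf2 was lost in the fit of all 18 libraries (adjusted p = 0.161) and with an offset for transcript length (adjusted p = 0.0571).

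**Figure D2:**
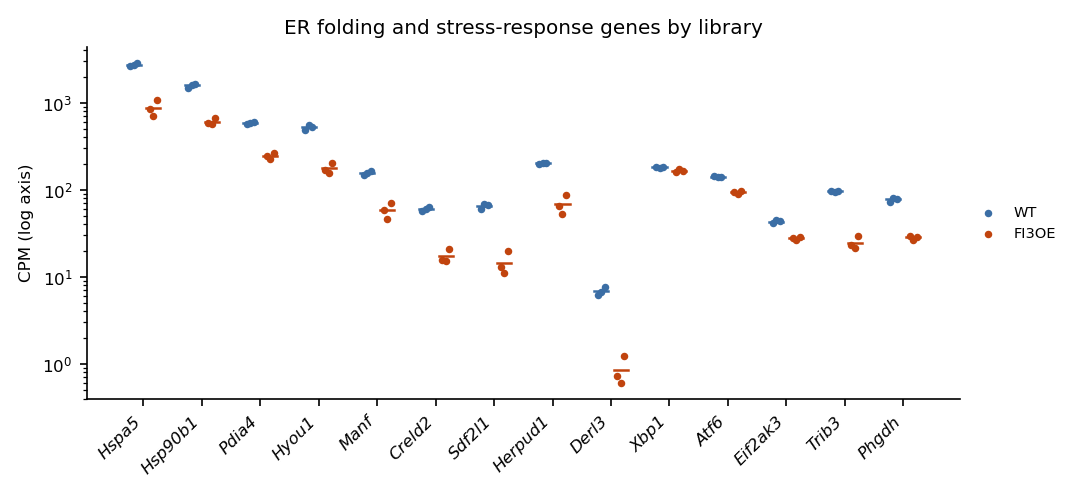
CPM on a log axis for 14 genes of ER folding, degradation and stress signalling in each of the 3 WT (blue) and 3 FI3OE (red) libraries, with group means as bars. WT and FI3OE points are apart for every gene shown, widely for Sdf2l1 and Derl3 and narrowly for Xbp1.

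Chaperone promoters are known to share an ER stress element, the letters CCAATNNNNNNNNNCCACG, which the stress-activated factors ATF6 and XBP1 bind with a CCAAT-binding partner. It was searched on both strands of the same 250 bases. Of 23 chaperone and isomerase genes with a window, 7 (30.4%) held it, against 18 of 11485 tested genes (0.157%) and 37 of 32851 windows (0.113%). A shorter core of XBP1 and ATF6 sites, the letters TGACGTG, was also searched. This core was in 3 of the 23 genes and in 298 of the 11485 (2.59%). Past both cutoffs, 4 of 164 lower genes (2.44%) and 6 of 215 higher genes (2.79%) held the core, so that it did not mark the lower genes. In Hspa5 the core starts 157 bases before the gene start and is left in lower case below. Of the 18 tested genes with the element, 14 were lower in FI3OE, 0 were higher and 4 did not pass. Adcy3, 1 of these 4, had a log2 fold change of 0.14 (adjusted p = 0.0529) and was called higher under 5 of 17 alternatives. The 7 on the chaperone list were all lower, as were 7 of the other 11, among them Derl3, Syvn1 and Alg12, which serve ER degradation and glycosylation, and Acacb, which encodes an acetyl-CoA carboxylase. Acacb had a log2 fold change of -0.24, and its call was lost with robust dispersion estimates (adjusted p = 0.0672), in the fit of all 18 libraries (adjusted p = 0.722), with length and GC trends removed (adjusted p = 0.0626) and without FI3OE replicate 1 (adjusted p = 0.0642). The 250 bases before the start of Hspa5 and of Herpud1 are shown, in capitals the element in Hspa5 and, in Herpud1, its shorter form, known as ER stress element II.
Hspa5, chr2:34771840-34772089, plus strand: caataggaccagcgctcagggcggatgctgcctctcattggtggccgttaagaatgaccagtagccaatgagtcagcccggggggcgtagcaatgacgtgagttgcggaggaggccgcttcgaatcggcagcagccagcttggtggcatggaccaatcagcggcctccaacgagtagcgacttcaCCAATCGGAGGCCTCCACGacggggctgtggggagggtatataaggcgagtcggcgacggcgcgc
Herpud1, chr8:94386179-94386428, plus strand: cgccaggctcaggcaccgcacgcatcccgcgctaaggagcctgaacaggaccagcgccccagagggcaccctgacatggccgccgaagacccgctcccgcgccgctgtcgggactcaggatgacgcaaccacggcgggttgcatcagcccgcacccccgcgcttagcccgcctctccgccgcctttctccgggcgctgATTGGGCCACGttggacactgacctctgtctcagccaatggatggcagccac

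The matched sites in genes of ER folding and degradation follow, read on the strand that gives CCAAT first, with the fixed letters in capitals and the spacer in lower case.
Calr, chr8:84847075-84847093: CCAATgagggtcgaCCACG
Canx, chr11:50325800-50325818: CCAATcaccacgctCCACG
Creld2, chr15:88819520-88819538: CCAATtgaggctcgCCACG
Derl3, chr10:75893242-75893260: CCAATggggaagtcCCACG
Dnajc3, chr14:118937827-118937845: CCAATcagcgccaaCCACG
Hsp90b1, chr10:86705533-86705551: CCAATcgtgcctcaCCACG
Hsp90b1, chr10:86705638-86705656: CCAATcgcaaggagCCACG
Hspa5, chr2:34772025-34772043: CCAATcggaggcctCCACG
Pdia6, chr12:17266491-17266509: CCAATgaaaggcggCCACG
Syvn1, chr19:6046532-6046550: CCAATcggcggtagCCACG

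Hsp90b1 holds 2 sites, while in Hspa5 the site starts 65 bases before the gene start. The log2 fold changes of these genes ran from -0.46 for Canx to -2.95 for Derl3. Herpud1, which recruits the degradation machinery, has no match to the longer element and its short form starts 52 bases before the gene start. It was at 64.6, 53.2 and 86.5 CPM in FI3OE and 197, 205 and 206 CPM in WT, a log2 fold change of -1.57 (SE 0.127, adjusted p = 2.37e-06). Of 7 tested genes with the short form, 3 were lower and 4 did not pass, so that Herpud1 stood apart from the others in size. Among the lower genes, Nucb1 lost its call with an offset for transcript length (adjusted p = 0.177). Nucb1 and Rbm39 both lost it in the fit of all 18 libraries (adjusted p = 0.675 and 0.278).

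The lists for degradation, entry, glycosylation and export follow, and their differences from the folding list were not tested. Of 25 genes of ER-associated degradation, 14 were lower and 5 higher, with a median of -0.16. Derl3, a channel component of this pathway, was at 0.72, 0.60 and 1.23 CPM in FI3OE and 6.15, 6.67 and 7.60 CPM in WT (log2 fold change -2.95, SE 0.223). Sel1l and Syvn1, the adaptor and the ligase of the central complex, fell by 0.97 and 0.71. Of 25 genes for entry into the ER, 15 were lower and 3 higher (median -0.24), with Sec61a1, the channel itself, at 191, 182 and 195 CPM against 258, 287 and 268 CPM (log2 fold change -0.52). Of 12 genes of the oligosaccharyltransferase, 7 were lower and 1, Tusc3, was higher (log2 fold change 0.40). Of 27 genes of COPII and ER export, 15 were lower and 2 higher, with a median of -0.15.

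Of 12 sensors and regulators of the unfolded protein response 8 were lower, 1 was higher and 3 did not pass, with a median of -0.13. The higher one was Eif2s1, a translation initiation factor gene (log2 fold change 0.19, adjusted p = 0.414 in the fit of all 18 libraries). Eif2ak3, which encodes PERK, was at 27.8, 26.7 and 28.4 CPM in FI3OE and 41.0, 44.4 and 43.6 CPM in WT (log2 fold change -0.64, SE 0.050). Atf6 was at 94.2, 90.2 and 97.1 CPM against 146, 141 and 139 CPM (log2 fold change -0.60, SE 0.040). Ern1, which encodes IRE1, fell by 0.33. The groups did not overlap for these 3 sensors. For Xbp1, the factor whose mRNA is spliced by IRE1, the difference was small, at 159, 173 and 166 CPM against 185, 179 and 183 CPM (log2 fold change -0.13, SE 0.040, adjusted p = 0.0222). Its call was lost in the fit of all 18 libraries (adjusted p = 0.559), with the length offset (adjusted p = 0.058) and without each of FI3OE replicate 1, FI3OE replicate 3, WT replicate 1 and WT replicate 3 (adjusted p = 0.0907, 0.0572, 0.0623 and 0.0625). The gene counts do not tell spliced from unspliced Xbp1.

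The PERK arm acts through ATF4, which turns on amino acid synthesis, transport and the stress factor CHOP. Of 30 ATF4 target genes 25 were lower in FI3OE, 4 were higher and 1 did not pass, with a median log2 fold change of -0.50. Trib3, a pseudokinase that restrains insulin signalling and ATF4, was at 23.2, 21.5 and 29.2 CPM against 97.8, 94.9 and 95.8 CPM (log2 fold change -1.95, SE 0.085, adjusted p = 1.56e-08). Phgdh, the first enzyme of serine synthesis, was at 29.7, 26.4 and 28.9 CPM against 73.3, 80.3 and 79.1 CPM (log2 fold change -1.45, SE 0.055). Ddit3, which encodes CHOP, fell by 0.93 and Atf4 itself by 0.41, and the one-carbon enzyme genes Mthfd2 and Shmt2 fell by 0.73 and 0.61. The groups were apart for all of these.

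The 4 exceptions on the ATF4 list were Gdf15, Atf3, Ddit4 and Sesn2, and the cause of their rise was not tested. Gdf15, a secreted stress hormone, was at 12.3, 12.0 and 12.7 CPM in FI3OE and 5.86, 5.14 and 6.22 CPM in WT (log2 fold change 1.10). Atf3 rose by 0.77, and Ddit4 and Sesn2 each by 0.41. Without FI3OE replicate 2 the log2 fold change of Ddit4 was 0.17 (adjusted p = 0.103), and its call was also lost without each of WT replicate 1, 2 and 3 (adjusted p = 0.0638, 0.142 and 0.106), with a replicate block (adjusted p = 0.0544) and under 4 other alternatives. In the fit of all 18 libraries Gdf15, Atf3 and Sesn2 had adjusted p-values of 0.0516, 0.454 and 0.126, and the ATF4 targets lower fell from 25 to 16. Aminoacyl-tRNA synthetases, some of which ATF4 controls, showed a smaller difference, with 8 of 20 lower, 3 higher and a median of -0.06.

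p53 target genes rose while the p53 gene did not pass the test. p53 is a transcription factor that is held low by MDM2 and, when stabilised, turns on genes of cell cycle arrest, DNA repair and apoptosis. Of 36 target genes 28 were higher in FI3OE, 10 of them at least 2-fold, 4 were lower and 4 did not pass, with a median log2 fold change of 0.60. With all 18 libraries fitted together 20 were higher. Their summed CPM was 0.376% to 0.381% of all CPM in FI3OE and 0.217% to 0.224% in WT.

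Cdkn1a, the p21 inhibitor of cyclin-dependent kinases, was at 523, 540 and 507 CPM in FI3OE and 218, 223 and 220 CPM in WT (log2 fold change 1.25, SE 0.037, adjusted p = 1.2e-09). Mdm2, the ligase that limits p53, was at 148, 148 and 144 CPM against 86.2, 77.5 and 85.2 CPM (log2 fold change 0.82, SE 0.045). Ccng1, another feedback target, was at 1017, 1010 and 1016 CPM against 493, 526 and 538 CPM (log2 fold change 0.97). All 3 separated the groups with a spread of a few percent within FI3OE. The largest rises were those of Ddit4l, an inhibitor of mTOR signalling, at 11.03, 10.06 and 10.04 CPM against 2.06, 3.84 and 2.80 CPM (log2 fold change 1.85, SE 0.172), and of Psrc1, a spindle protein gene, at 31.7, 31.0 and 27.9 CPM against 9.50, 9.31 and 10.1 CPM (log2 fold change 1.64).

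Of the other targets, 3 that are known to act in apoptosis are given as examples, with log2 fold changes of 0.58 for Bax, 0.70 for the death receptor gene Fas and 1.14 for Pmaip1, which encodes Noxa. Pmaip1 had an adjusted p of 0.0597 in the fit of all 18 libraries. The largest falls were those of Gadd45a (log2 fold change -0.50) and Sesn1 (-0.29), so that the list did not move as 1 block. Gadd45a had an adjusted p of 0.0678 in the fit of all 18 libraries.

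Trp53 was at 27.4, 28.3 and 27.8 CPM in FI3OE and 25.7, 26.4 and 24.7 CPM in WT, a log2 fold change of 0.12 (SE 0.050, adjusted p = 0.0813). The groups did not overlap, so that missing the threshold does not show Trp53 to be unchanged. Of 14 genes for p53 and its regulators, 1 was higher and 1 lower. The higher one was Atm, the kinase that responds to DNA breaks, at 142, 141 and 140 CPM against 73.2, 75.045 and 77.9 CPM (log2 fold change 0.90, SE 0.037, adjusted p = 1.15e-08). The lower one was Usp7, a deubiquitinase of MDM2 and p53.

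Of 30 proliferation genes 13 were higher and 4 lower, with a median of 0.30, and the increase of Ccne1 stood above the rest. Ccne1, the cyclin that drives entry into S phase, was at 54.6, 64.9 and 56.3 CPM against 20.6, 20.97 and 19.8 CPM (log2 fold change 1.52, SE 0.068). Mki67, a marker of cycling cells, was at 13.3, 13.4 and 11.02 CPM against 9.70, 8.33 and 10.1 CPM (log2 fold change 0.42, adjusted p = 0.00958). In the fit of all 18 libraries Mki67 had an adjusted p of 0.772, and with the length offset of 0.0575 (log2 fold change 0.65). The replication licensing gene Cdt1 was lower, at 3.63, 3.78 and 4.01 CPM against 5.70, 5.32 and 5.199 CPM, and so was Ccne2 (log2 fold change -0.45), the sister of Ccne1. Both lost their call in the fit of all 18 libraries (adjusted p = 0.133 and 0.178) and with the length offset (adjusted p = 0.0596 and 0.0729), and Ccne2 also without FI3OE replicate 1 (adjusted p = 0.0511) and without WT replicate 1 (adjusted p = 0.0546).

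Nearly all proteasome genes rose. Of 31 constitutive subunit genes 30 were higher in FI3OE, 0 were lower and 1, Psmc6, did not pass (log2 fold change 0.11, adjusted p = 0.055), with a median log2 fold change of 0.35 and none at 2-fold. All 31 were called higher with no filter on low counts and with at least 10 counts in every library. The same held with robust dispersion estimates and without FI3OE replicate 1. With all 18 libraries fitted together 21 of the 31 were higher. Psmb2 was at 84.4, 91.2 and 87.0 CPM against 56.1, 56.2 and 56.2 CPM, the largest rise of the list (log2 fold change 0.64). Cytosolic ribosomal protein genes showed no such shift, with 4 of 76 higher, 13 lower and a median of -0.04.

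Genes of the mitochondrial genome were lower, while nuclear genes of the same complexes had medians near 0. Mitochondrial DNA encodes 13 subunits of the respiratory chain, and the other subunits are encoded in the nucleus and imported. All 13 mitochondrial-genome genes were lower in FI3OE, 5 of them at least 2-fold, with a median log2 fold change of -0.95. Reads on the mitochondrial genome made up 1.08%, 1.013% and 1.164% of the FI3OE libraries and 2.151%, 2.117% and 2.306% of the WT libraries. Reads of genes like ribosomal RNA made up 5.983%, 5.865% and 5.691% of the FI3OE libraries and 5.382%, 5.195% and 5.245% of the WT libraries. These shares did not overlap either, and their relation to the mitochondrial reads was not tested.

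mt-Co1, the catalytic subunit of complex IV, was at 6045, 5792 and 6591 CPM in FI3OE and 12297, 12508 and 13491 CPM in WT (log2 fold change -1.05, SE 0.047, adjusted p = 1.95e-08). mt-Nd1, a membrane subunit of complex I, was at 399, 371 and 440 CPM against 953, 887 and 1003 CPM (log2 fold change -1.23, SE 0.062). The libraries of the groups were far apart for both. The largest fall was that of mt-Nd4l (log2 fold change -1.42), which overlaps mt-Nd4 so that reads can be shared, and the smallest that of mt-Nd3 (-0.33). mt-Nd6, alone of the 13 on the other strand, fell by 0.67, and the libraries do not mark strand. mt-Nd3 lost its call with length and GC trends removed (log2 fold change -0.14, adjusted p = 0.06) and, like mt-Nd6, in the fit of all 18 libraries (adjusted p = 0.527 and 0.322).

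**Figure D3:**
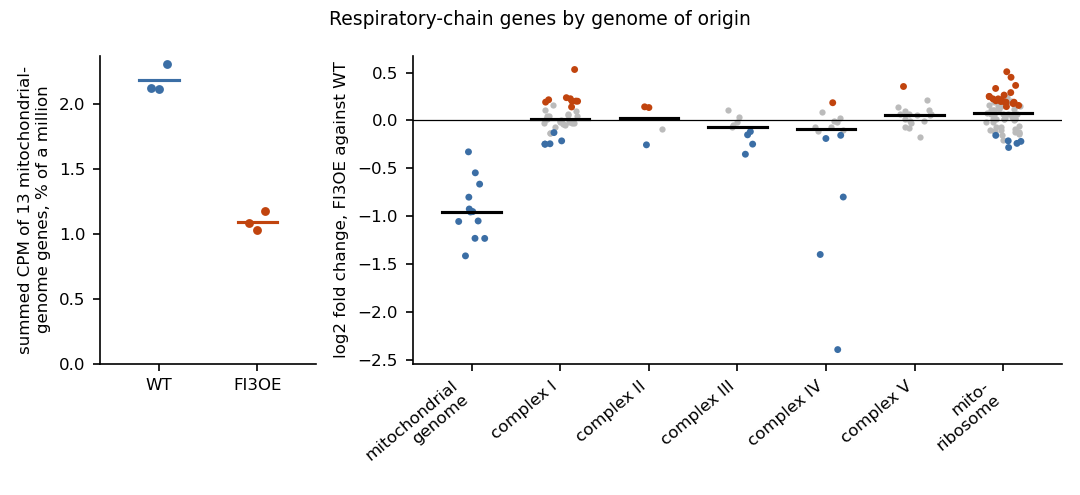
Left, summed CPM of the 13 mitochondrial-genome genes as percent of all CPM in each library, with group means as bars. Right, log2 fold change of each gene by complex for nuclear-encoded subunits and mitochondrial ribosomal proteins (coloured where adjusted p was at most 0.05, bars are medians); only the mitochondrial-genome column has its median, -0.95, far from 0.

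Among nuclear genes, 9 of 37 complex I subunits were higher and 5 lower (median 0.01), with the largest rise in Ndufb3 at 30.5, 32.0 and 30.0 CPM against 22.9, 20.2 and 20.8 CPM (log2 fold change 0.53). Of 4 complex II genes 2 were higher and 1 lower, of 9 complex III genes 4 were lower, and of 17 complex V genes 1, Atp5g3, was higher. In the fit of all 18 libraries the complex II genes Sdhc, Sdhd and Sdha did not pass (adjusted p = 0.287, 0.358 and 0.187). Sdhd also lost its call with the length offset (adjusted p = 0.0796) and without FI3OE replicate 2 (adjusted p = 0.0501). Of 14 complex IV genes 5 were lower and 1 higher, with a median of -0.09. Cox4i1 and Cox7b lost their calls without FI3OE replicate 1 or 3 or WT replicate 1 or 3 (adjusted p from 0.0628 to 0.177). Cox7b also lost its call without FI3OE replicate 2 (adjusted p = 0.0604) and when thinned to the smallest library (adjusted p = 0.103). The same held with a replicate block and with robust dispersion estimates (adjusted p = 0.0532 for each). The higher gene, Ndufa4, lost its call without FI3OE replicate 1 or 2 or WT replicate 1 or 2 (adjusted p from 0.0526 to 0.0832). None of these genes passed with the length offset or in the fit of all 18 libraries. The falls of size in complex IV were those of the 3 isoform genes known from muscle and brown fat. Cox7a1 was at 8.62, 9.95 and 8.70 CPM against 16.3, 14.8 and 16.3 CPM (log2 fold change -0.80, SE 0.086), Cox8b at 0.76, 1.16 and 1.2 CPM against 2.85, 2.22 and 3.27 CPM (-1.40), and Cox6a2 at 0.085, 0.34 and 0.33 CPM against 1.16, 1.34 and 1.65 CPM (-2.39).

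Of 77 mitochondrial ribosomal protein genes 21 (27.3%, against 20.2% of all genes) were higher and 5 lower, with a median of 0.08. Mrps27 and Mrps36, both lower, lost their calls without FI3OE replicate 1 or 2 or WT replicate 2 (adjusted p from 0.0527 to 0.106). Neither passed in the fit of all 18 libraries (adjusted p = 0.319 and 0.286). Regulators of mitochondrial biogenesis leaned downward, with 10 of 17 lower, 3 higher and a median of -0.18. Ppargc1b, a coactivator of mitochondrial genes, was at 9.97, 9.61 and 12.1 CPM against 23.2, 17.3 and 18.3 CPM (log2 fold change -0.88, SE 0.120). Tfb2m, needed to start transcription on mitochondrial DNA, was at 28.4, 28.5 and 30.1 CPM against 38.2, 37.4 and 39.97 CPM (log2 fold change -0.41). Tfam, which packages mitochondrial DNA and also starts its transcription, was higher, at 28.4, 28.4 and 26.9 CPM against 22.3, 23.2 and 25.1 CPM (log2 fold change 0.24). Tfam lost its call in the fit of all 18 libraries (adjusted p = 0.143) and with the length offset (adjusted p = 0.614).

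Ppargc1a, the best-known regulator of this group, had a log2 fold change of -0.21 (SE 0.074, adjusted p = 0.0478) and 17.4, 15.3 and 17.1 CPM against 17.7, 20.3 and 19.6 CPM. FI3OE replicate 1 lay close to WT replicate 1. Its call was lost in 11 of 17 alternatives, whose adjusted p ran from 0.0557 to 0.656, among them the replicate block (adjusted p = 0.0716) and each fit without 1 library other than WT replicate 1. Chchd10, a protein of the cristae, fell most among 34 import and cristae genes, at 22.7, 22.5 and 23.98 CPM against 73.1, 71.5 and 76.6 CPM (log2 fold change -1.68, SE 0.048), while the list had 4 higher, 7 lower and a median of 0.07. The tricarboxylic acid cycle had 7 of 19 genes lower and 3 higher, with Idh2 the furthest down (log2 fold change -0.74).

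Matrix genes moved in both directions. Adipocytes and fibroblasts are surrounded by collagen fibrils and a basement membrane of collagen IV, collagen VI, laminin and nidogen. Of 28 collagen genes 15 were lower in FI3OE, 5 were higher and none reached 2-fold, with a median log2 fold change of -0.19. The 3 main genes of collagen VI all fell, with Col6a3 at 1875, 1831 and 1980 CPM against 2772, 2691 and 2819 CPM (log2 fold change -0.54, SE 0.036) and Col6a1 and Col6a2 down by 0.32 and 0.31. The largest fall was that of Col5a3, at 317, 345 and 352 CPM against 655, 613 and 583 CPM (log2 fold change -0.87, SE 0.051). The largest rises were those of Col28a1, at 115, 105 and 111 CPM against 70.6, 64.4 and 68.0 CPM (log2 fold change 0.71), and Col8a1 (0.55).

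Col1a1 and Col3a1, which encode the most abundant fibril collagens, differed little. Col1a1 was at 6344, 6579 and 6362 CPM in FI3OE and 6683, 6781 and 6952 CPM in WT, a log2 fold change of -0.08 (SE 0.027, adjusted p = 0.0353), and Col3a1 had -0.09. Col1a2, the partner chain of Col1a1, was higher (log2 fold change 0.29). The call for Col1a1 was lost without FI3OE replicate 1, FI3OE replicate 3, WT replicate 2 or WT replicate 3 (adjusted p from 0.0814 to 0.171). It was also lost with length and GC trends removed (adjusted p = 0.454), where the median of the list moved to -0.13, with either other filter on low counts (adjusted p = 0.0563 and 0.214), with robust dispersion estimates (adjusted p = 0.0595) and in the fit of all 18 libraries (adjusted p = 0.97). The call for Col3a1 was lost without FI3OE replicate 1, WT replicate 2 or WT replicate 3 (adjusted p = 0.0844, 0.0675 and 0.119) and with no filter on low counts (adjusted p = 0.145). With all 18 libraries fitted together, 2 collagen genes were still lower, and Col6a3, Col28a1 and Col8a1 no longer passed (adjusted p = 0.127, 0.0809 and 0.526), nor did Col6a1, Col6a2, Col1a2 and Col3a1 (adjusted p = 0.295, 0.211, 0.32 and 0.904).

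Enzymes that modify collagen leaned the other way, with 10 of 26 genes higher, 2 lower and a median of 0.11. Loxl3, a lysyl oxidase that crosslinks collagen and elastin, was at 302, 336 and 302 CPM in FI3OE and 55.7, 61.1 and 61.0 CPM in WT. Its 5.29-fold rise (log2 fold change 2.40, SE 0.056, adjusted p = 5.7e-10) was among the 10 largest outside the interferon list for genes whose mean log2 CPM reached 1 and whose groups did not overlap. The next on the list was the prolyl hydroxylase gene P4ha3 (log2 fold change 0.71).

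Of 42 glycoprotein and proteoglycan genes 20 were higher and 13 lower, with a median of 0.10. Efemp1, a fibulin, was at 144, 151 and 153 CPM against 82.1, 81.1 and 79.1 CPM (log2 fold change 0.89) and Agrn, a heparan sulfate proteoglycan, at 286, 289 and 276 CPM against 152, 159 and 154 CPM (0.87). The falls were led by Sparcl1, at 26.7, 21.4 and 27.6 CPM against 64.6, 56.8 and 62.8 CPM (log2 fold change -1.28), and Tgfbi (-1.03). Elastin, from Eln, had a log2 fold change of -0.85 with an adjusted p of 0.296 in the fit of all 18 libraries.

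Among 29 matrix proteases and inhibitors 12 were higher and 7 lower, with a median of 0.00. Timp1, an inhibitor of metalloproteinases, was at 97.4, 106 and 98.0 CPM against 37.5, 41.3 and 42.3 CPM (log2 fold change 1.32, SE 0.053), and the plasminogen activator gene Plat rose by 0.91. Mmp11, a metalloproteinase that is known to act in fat and connective tissue, was at 14.1, 17.1 and 15.7 CPM against 29.8, 36.7 and 34.4 CPM (log2 fold change -1.10), and Fap fell by 0.63. In the fit of all 18 libraries Timp1, Plat and Fap had adjusted p-values of 0.0844, 0.137 and 0.43.

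Among lipid synthesis genes the desaturases Scd1, Scd2 and Scd3 fell, while Acly and Fasn rose. Fatty acids are made from citrate by ATP-citrate lyase, acetyl-CoA carboxylase and fatty acid synthase and are then desaturated by the stearoyl-CoA desaturases (SCD). Of 23 genes of de novo lipogenesis 12 were higher in FI3OE, 7 lower and 4 did not pass, with a median log2 fold change of 0.28, while their summed CPM fell from between 5.131% and 5.293% of all CPM in WT to between 3.378% and 3.665%. The sum and the median differ in direction because Scd1 alone held most of the CPM.

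Scd1, the main desaturase of fat, was at 18969, 20001 and 21288 CPM in FI3OE and 37795, 38071 and 37070 CPM in WT (log2 fold change -0.91, SE 0.035, adjusted p = 8.16e-09). Scd2 was at 2522, 2899 and 2754 CPM against 3767, 3635 and 3533 CPM (log2 fold change -0.42, SE 0.047). Scd3 was at 0.93, 1.01 and 1.39 CPM against 14.3, 11.6 and 14.9 CPM, the largest fall of all genes named by the rule (log2 fold change -3.58, SE 0.164, adjusted p = 2.18e-08). None of the 3 overlapped between the groups. The Scd genes are close copies that lie side by side on chromosome 19, so that reads of the far more abundant Scd1 can be assigned to Scd3. In the fit of all 18 libraries Scd2 had an adjusted p of 0.679.

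Of the enzymes before the desaturases, Acly and Fasn were higher and the carboxylases were not. Acly was at 966, 1114 and 955 CPM against 752, 667 and 725 CPM (log2 fold change 0.50, SE 0.061), and Fasn at 6763, 7196 and 7047 CPM against 6162, 5417 and 5743 CPM (0.28, SE 0.043, adjusted p = 0.000361). Acaca, an acetyl-CoA carboxylase gene, overlapped between the groups and did not pass the test, and Acacb, the gene of the other carboxylase, was lower (log2 fold change -0.24, adjusted p = 0.0172), a call that 4 alternatives lost. Without WT replicate 1 the log2 fold change of Acacb was -0.14. Pnpla3 had the largest rise of the list (log2 fold change 0.57). The transcription factor genes behind this pathway were slightly lower, Srebf1 by 0.15 and Mlxipl, which encodes ChREBP, by 0.38. In the fit of all 18 libraries the genes of this list higher in FI3OE fell from 12 to 4, and Acly, Fasn and Srebf1 did not pass (adjusted p = 0.272, 0.705 and 0.4). Mlxipl lost its call with the length offset (adjusted p = 0.0812) and with robust dispersion estimates (adjusted p = 0.0794), and without WT replicate 1 its log2 fold change was -0.23.

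**Figure D4:**
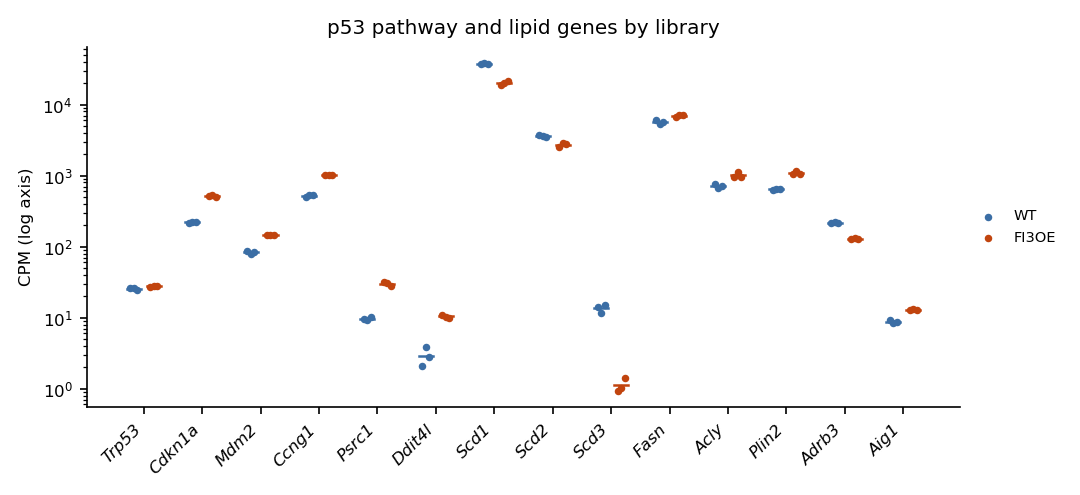
CPM on a log axis for 6 genes of the p53 pathway and 8 genes of lipid metabolism in each WT (blue) and FI3OE (red) library, with group means as bars. Trp53 lies nearly level while Cdkn1a, Mdm2, Ccng1, Psrc1 and Ddit4l are higher in FI3OE, and the 3 Scd genes are lower while Fasn and Acly are higher.

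Cholesterol synthesis leaned upward, with 17 of 28 genes higher, 2 lower and a median of 0.16. Dhcr7, the last enzyme of the pathway, was at 76.7, 80.5 and 74.6 CPM against 44.5, 44.4 and 43.3 CPM (log2 fold change 0.81), and Acat2 had the same log2 fold change, 0.81. Of 25 genes of fatty acid uptake and triglyceride synthesis 12 were higher and 7 lower, among them the acyltransferase gene Agpat2 (log2 fold change 0.54) on one side and Pck1 (-1.17) and Lpin1 (-0.66), the largest falls, on the other. Pck1, used by adipocytes to make glycerol phosphate, was at 4.52, 3.67 and 4.28 CPM against 8.09, 10.5 and 9.45 CPM and had an adjusted p of 0.355 in the fit of all 18 libraries.

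Of 24 genes of lipolysis and lipid droplets 9 were higher and 8 lower. The 1 fall of at least 2-fold was that of Cidea, a lipid droplet protein gene with at most 2 reads in an FI3OE library and at most 27 in a WT library, for which no fold is given. Plin2, a coat protein of lipid droplets, was at 1051, 1167 and 1067 CPM against 634, 641 and 656 CPM (log2 fold change 0.77, SE 0.042). Adrb3, the receptor through which catecholamines start lipolysis, was at 128, 131 and 127 CPM against 216, 219 and 214 CPM (log2 fold change -0.75, SE 0.035). In the fit of all 18 libraries Adrb3 had an adjusted p of 0.183. Beta-oxidation had 6 of 24 genes higher and 9 lower, from Cpt1a, which brings fatty acids into mitochondria, at 104, 93.4 and 91.4 CPM against 53.8, 62.1 and 58.7 CPM (log2 fold change 0.72), to the acyl-CoA thioesterase gene Acot2 at 22.5, 23.8 and 21.4 CPM against 52.5, 50.1 and 47.7 CPM (-1.15).

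Aig1, a hydrolase of fatty acid esters of hydroxy fatty acids (FAHFAs), was at 12.7, 13.4 and 12.9 CPM against 9.16, 8.52 and 8.74 CPM, without overlap (log2 fold change 0.56, SE 0.080). Of the 5 genes for FAHFA handling that were tested, 2 were higher and 1 lower. Prdx6 rose by 0.48, and Ces1d, another hydrolase, fell by 0.40 with an adjusted p of 0.594 in the fit of all 18 libraries.

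The 2 main regulators of adipocyte identity did not pass the test, while several other identity genes were lower. Pparg, the master regulator of adipocytes, was at 241, 263 and 249 CPM in FI3OE and 252, 241 and 248 CPM in WT, and Cebpa, its partner, at 422, 432 and 433 CPM against 428, 432 and 421 CPM. Both overlapped between the groups (adjusted p = 0.686 and 0.896). Of 23 identity genes 3 were higher and 10 lower, with a median of -0.08. Adipoq, which encodes adiponectin, was at 997, 1031 and 1039 CPM against 741, 789 and 770 CPM (log2 fold change 0.42), and Retn, which encodes resistin, rose by 0.58. Ppara was at 6.89, 7.29 and 8.16 CPM against 17.1, 16.6 and 15.2 CPM (log2 fold change -1.12), and Irs2, an adaptor of the insulin receptor, fell by 0.58. Adipoq, Retn and Irs2 did not pass in the fit of all 18 libraries (adjusted p = 0.402, 0.107 and 0.296).

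Markers of other cells moved with the groups in part. The summed CPM of 15 adipocyte markers was 1.361% to 1.4% of all CPM in FI3OE and 1.561% to 1.577% in WT. The 12 preadipocyte and fibroblast markers summed to 0.272% to 0.283% against 0.166% to 0.174%. Ly6a, an interferon-responsive gene on this list, was at 1341, 1473 and 1337 CPM against 387, 401 and 377 CPM, while Pdgfra did not pass (adjusted p = 0.454). Without Ly6a the list summed to 0.136% to 0.142% against 0.128% to 0.137%, and the groups overlapped. Of these 12, 5 were higher and 1 lower. The 14 macrophage markers tested summed to 0.242% to 0.248% against 0.241% to 0.258%, so that the groups overlapped, with 4 higher and 3 lower. Adgre1 (224, 230 and 224 CPM against 222, 233 and 241 CPM) overlapped between the groups, whereas Mrc1, a scavenger receptor of tissue macrophages, was at 231, 227 and 253 CPM against 440, 414 and 446 CPM (log2 fold change -0.87; adjusted p = 0.208 in the fit of all 18 libraries). The endothelial, mesothelial, mammary epithelial, lymphocyte and skeletal muscle lists each summed to at most 0.0067% in every library, and the pericyte and smooth muscle list to 0.089% to 0.108% with overlap between the groups. The part of these cells in the changes above was not tested.

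Outside the interferon list, and counting only genes whose mean log2 CPM reached 1 and whose groups did not overlap, the largest rises were those of Cngb3, Ccl5, Loxl3, Cnr1, Hdc, Apol7a, Gbp10, Il33, Plekha7 and Myo18b, with log2 fold changes from 3.60 down to 2.04. The authors name Ccl5 as an IRF3 target beside Ifit1 and Isg15, and Gbp10 is of the family of the listed Gbp2 and Gbp3. This set thus also depends on how the interferon list was drawn. Cnr1, the cannabinoid receptor, was at 16.0, 15.6 and 15.8 CPM against 2.81, 3.29 and 2.95 CPM. Hdc, the enzyme that makes histamine, was at 10.5, 13.4 and 11.3 CPM against 1.98, 3.06 and 2.48 CPM. Il33, an alarmin made by stromal cells of fat, was at 13.4, 10.0 and 12.2 CPM against 2.02, 3.06 and 2.88 CPM. For each of the 3, the lowest FI3OE library was more than 3 times the highest WT library.

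Under the same limits the largest falls were those of Scd3, Derl3, Itih4, Mreg, Cdsn, Atp2a3, Ntsr2, Sdf2l1, Npr1 and Cecr2, with log2 fold changes from -3.58 to -2.06. Itih4, a secreted plasma protein gene, was at 3.59, 3.25 and 3.71 CPM against 27.4, 27.3 and 26.5 CPM. Atp2a3, a calcium pump of the ER, was at 2.70, 2.73 and 4.04 CPM against 15.3, 14.2 and 14.4 CPM. Npr1, the receptor through which natriuretic peptides stimulate lipolysis, was at 1.61, 1.57 and 1.85 CPM against 7.97, 7.41 and 6.73 CPM.

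**Figure D5:**
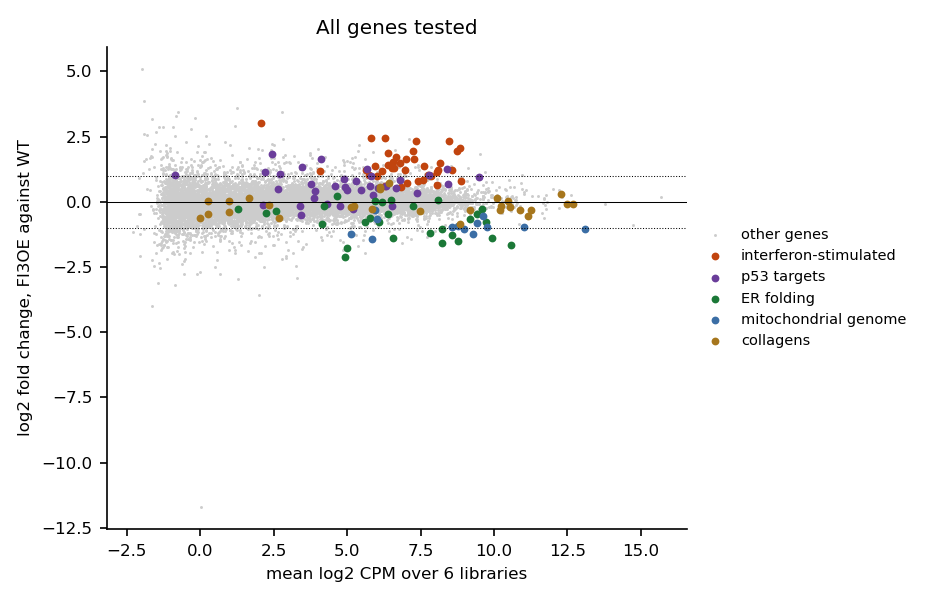
Log2 fold change of FI3OE against WT (y axis) by mean log2 CPM over the 6 libraries (x axis) for the 16105 genes tested, with 5 lists in colour and dotted lines at a log2 fold change of 1 and -1. All 38 interferon-stimulated genes and most p53 targets lie above 0, while most ER folding genes and all 13 mitochondrial-genome genes lie below it.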

How the data were processed

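RNA for the 6 libraries was depleted of ribosomal RNA and prepared with Nextera XT, which does not mark strand, so that overlapping and antisense genes cannot be separated. The authors trimmed reads with fastp and quantified transcripts with Salmon 1.4.0, and deposited estimated counts and TPM per transcript. Salmon shares ambiguous reads between close copies (the Scd genes, Ifit3 and Ifit3b, Tgtp1 and Tgtp2) and overlapping mitochondrial genes, whose values are uncertain. TPM was used only for a mean level per gene and enters no test. The deposited estimated counts were summed per gene and rounded to whole numbers. Of 118733 transcripts, 117850 were matched to genes through the GENCODE M21 annotation, and each of the 883 others was treated as a separate gene (33440 genes in all).

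FI3OE was compared with WT by the quasi-likelihood test of edgeR 4.0.16 (R 4.3.3) on the 6 libraries, with filterByExpr, TMM scaling and Benjamini-Hochberg adjustment over 16105 genes. The thresholds were an adjusted p of 0.05 and, where stated, an absolute log2 fold change of 1. DESeq2 1.42.0 was an alternative, along with other filters, scalings, offsets, a replicate block, a fit with the 12 TRAP libraries of the series, thinning to the smallest library, and leaving out each library. On simulated data with 200 of 16105 genes changed by a log2 fold change of 1.5, the test recovered 97.5% of them and made 25 false calls. These were a larger share of the simulated calls than the threshold of 0.05 aims at. In the real data 5960 genes passed the adjusted p and 583 both cutoffs, so that most called changes were smaller than those simulated. Recovery of such smaller changes was not simulated. Totals per library limit the precision of low genes. Each SE is that of the log2 fold change from the quasi-likelihood fit, which includes the spread between libraries. No 2 libraries agreed within sampling noise, with a chi-square per degree of freedom of at least 3.809 between replicates.

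The members and gene lists were chosen with earlier results of these data known. The genes named were 14 chosen by name, the 2 largest rises and falls in each list among genes past the threshold whose mean log2 CPM reached 1, and the 10 largest rises and falls overall outside the interferon list without overlap between groups. All other genes named, such as Hyou1, Manf and Scd2, were chosen after their values were seen. Promoter windows are from RefSeq on GRCm38.p6 and were found for 11485 of 16093 symbols tested.
A few genes of these lists are not reported here.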

Additional observations from a re-analysis of the deposited data

How the results depend on the processing

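Leaving out 1 library at a time gave 305 to 349 genes higher and 223 to 296 lower past both cutoffs, and 2746 to 2914 higher and 2190 to 2385 lower at any size. The medians then ran from 1.26 to 1.34 for interferon-stimulated genes, -0.70 to -0.62 for ER folding, 0.58 to 0.63 for p53 targets, -0.01 to 0.05 for complex I, -0.24 to -0.16 for collagens and 0.24 to 0.30 for de novo lipogenesis, and Irf3 from 0.68 to 0.76. The list counts ran from 38 to 38 interferon-stimulated genes, 27 to 27 p53 targets, 29 to 31 proteasome genes and 12 to 12 lipogenesis genes higher, and from 20 to 21 ER folding, 23 to 25 ATF4 target, 13 to 13 mitochondrial-genome and 10 to 14 collagen genes lower. The fit of all 18 libraries, which shares 1 estimate of spread with the TRAP libraries, gave 205 genes higher and 137 lower past both cutoffs, 955 and 617 at any size, 16 ATF4 targets, 2 collagens, 19 ER folding and 10 mitochondrial-genome genes lower, and 4 lipogenesis, 37 interferon-stimulated, 20 p53 target and 21 proteasome genes higher. Testing for changes beyond 1 on the log2 scale (glmTreat) gave 116 higher and 59 lower. With at least 10 counts in every library, 173 genes were lower past both cutoffs. An offset for transcript length gave 1594 genes lower at any size and medians of -0.74 for ER folding and 0.24 for lipogenesis. With length and GC trends removed the medians were -0.13 for collagens and 0.31 for lipogenesis. The cause of these shifts was not tested. Replicate numbers did not pair the libraries (r of same-numbered deviations 0.015, -0.046 and -0.022), and with a replicate block 320 genes were higher and 259 lower, 3088 and 2570 at any size. Of 249 genes examined, 239 passed the threshold, of which 102 lost their call in the fit of all 18 libraries and 36 under any other alternative, 3 others gained one and 0 called genes changed sign. The median over all genes stayed between -0.01 and 0.001.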

Other observations

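The gene lists in this section were made after values of these data had been seen, and they are given as descriptions. Glycolysis enzymes leaned upward in FI3OE, with 9 of 16 higher, 0 lower and a median log2 fold change of 0.30, against 20.2% of all genes higher. Pkm, which makes pyruvate, was at 1781, 2266 and 1953 CPM in FI3OE and 1318, 1300 and 1408 CPM in WT (log2 fold change 0.58, SE 0.070). FI3OE replicate 2 was the highest library, and the groups did not overlap. Enzymes of branched-chain amino acid catabolism, a pathway active in adipocytes, had 11 of 18 lower, 0 higher and a median of -0.22. Bcat2, which starts this pathway in mitochondria, was at 112, 106 and 125 CPM against 240.2, 243 and 239 CPM (log2 fold change -1.07, SE 0.055).

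All 5 genes of the immunoproteasome and its activator were higher, with a median of 1.05, and Psmb8, an interferon-induced catalytic subunit, was at 165, 182 and 165 CPM against 69.0, 72.3 and 64.0 CPM. Of 10 genes known from tissue-resident macrophages 6 were lower and 2 higher, with a median of -0.50. Lyve1, a hyaluronan receptor, was at 6.89, 6.32 and 7.28 CPM against 22.5, 18.7 and 21.6 CPM (log2 fold change -1.61), and F13a1, a transglutaminase, fell by 1.11. Stab1, a scavenger receptor, had a log2 fold change of -1.10 and an adjusted p of 0.289 in the fit of all 18 libraries. Folr2 rose, by a log2 fold change of 0.32, with an adjusted p of 0.729 in that fit. Of 19 lysosomal genes 10 were higher and 3 lower. The cholesterol exporters of the lysosome went opposite ways, Npc2 by 0.75 and Npc1 by -0.48 on the log2 scale.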
